A study of Mus musculus with 33 samples.

Results

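The genes described here are 10 mouse genes whose proteins fold other proteins in the endoplasmic reticulum (ER), the compartment in which secreted and membrane proteins mature. They were chosen by name, with earlier results of these data known. They are Serpinh1, Hsp90b1, Pdia3, Canx, P4hb, Hspa5, Calr, Pdia4, Pdia6 and Hyou1. These are 10 of 21631 genes that code for proteins (autosomes and the X chromosome). Every peak was taken for a gene if its summit, the point with the most tags, lay inside the gene or within 10 kb of it. The peaks come from chromatin immunoprecipitation followed by sequencing (ChIP-seq) in mouse embryonic fibroblasts of the strain background 129Sv.BALB/c, unheated or heat shocked for 12 or 60 min. Wild type cells and HSF1-/- cells were each examined with the antibodies CS and MM, which the file headers place in an Hsf1 experiment, and wild type cells also with an antibody against SRF. HSF1 is the main transcription factor of the heat shock response, and the HSF1-/- cells show what each antibody brings down without it. SRF is a factor of cytoskeletal and immediate early genes. The result is 15 peak lists, 1 for each genotype, time and antibody, so there was no replicate error and no test between conditions. The authors kept 14.0 to 26.3 M (mega) tags in the wild type CS and MM libraries, 5.18 to 15.6 M in the HSF1-/- libraries and 0.751 to 1.55 M in the SRF libraries. Peak lists hold no expression values, so the labelled cell type was not checked, and how much RNA these genes made was not measured in them.

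Proteins that enter the ER are held by the Hsp70 protein BiP (Hspa5), by its partner Grp170 (Hyou1), an Hsp110-type chaperone, and by the ER Hsp90, Grp94 (Hsp90b1). Glycoproteins pass through the lectins calnexin (Canx) and calreticulin (Calr), which work with the disulfide isomerase ERp57 (Pdia3), while P4hb, Pdia4 and Pdia6 encode further disulfide isomerases. Serpinh1 encodes Hsp47, a chaperone of collagens, the main secreted product of fibroblasts. P4hb is also the beta subunit of the prolyl hydroxylase that modifies collagens. Most of these genes are known targets of the unfolded protein response, in which the sensors Atf6, Ern1 and Eif2ak3 report misfolded protein in the ER. That response works through the ER stress element, whereas HSF1, the factor of the cytosolic response, binds repeats of GAA and its complement TTC.

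The promoters of members with and without an HSF1 peak were read first, to show which of these elements they hold. RefSeq promoter sequences (GRCm38.p6, the primary assembly of mm10; 250 bases before to 50 after the start site) were found for 9 of the 10 members, Hyou1 being the exception. Below are the 250 bases before the start site on the gene's strand for Serpinh1, the member with the most HSF1 tags, for Hsp90b1 and Canx, which also had HSF1 peaks, and for Hspa5, which had none. Capitals mark the fixed letters of an ER stress element, which are CCAAT and CCACG 9 bases apart, or their complement.
Serpinh1, chr7:99353240-99353489, minus strand: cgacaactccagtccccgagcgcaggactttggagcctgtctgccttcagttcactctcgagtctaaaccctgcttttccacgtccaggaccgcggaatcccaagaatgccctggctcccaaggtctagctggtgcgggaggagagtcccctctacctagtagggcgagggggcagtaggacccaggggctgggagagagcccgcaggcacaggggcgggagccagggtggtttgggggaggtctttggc
Hsp90b1, chr10:86705445-86705694, minus strand: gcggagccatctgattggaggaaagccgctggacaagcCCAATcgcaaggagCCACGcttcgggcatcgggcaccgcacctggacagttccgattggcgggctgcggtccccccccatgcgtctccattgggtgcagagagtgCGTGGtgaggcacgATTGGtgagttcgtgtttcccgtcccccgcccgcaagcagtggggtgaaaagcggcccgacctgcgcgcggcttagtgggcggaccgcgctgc
Canx, chr11:50325674-50325923, minus strand: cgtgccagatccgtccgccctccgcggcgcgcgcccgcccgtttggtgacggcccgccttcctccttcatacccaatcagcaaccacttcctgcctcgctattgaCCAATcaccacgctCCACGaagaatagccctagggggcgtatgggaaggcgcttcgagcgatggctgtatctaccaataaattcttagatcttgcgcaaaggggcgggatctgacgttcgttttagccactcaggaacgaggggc
Hspa5, chr2:34771840-34772089, plus strand: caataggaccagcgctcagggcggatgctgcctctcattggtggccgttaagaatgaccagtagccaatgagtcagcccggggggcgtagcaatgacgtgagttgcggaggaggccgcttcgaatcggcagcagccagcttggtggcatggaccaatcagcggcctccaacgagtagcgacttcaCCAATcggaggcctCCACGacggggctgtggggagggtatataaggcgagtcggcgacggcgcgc

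Hsp90b1 held 2 ER stress elements, beginning 212 and 107 bases before its start site, and Canx and Hspa5 held 1 each, beginning 145 and 65 bases before theirs. Calr and Pdia6 also held 1 each, and neither had an HSF1 peak.
Calr, chr8:84847075-84847093: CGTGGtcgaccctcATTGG
Pdia6, chr12:17266491-17266509: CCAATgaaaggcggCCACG

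In all, 5 of the 9 members with a promoter sequence (Hsp90b1, Canx, Hspa5, Calr and Pdia6) matched the ER stress element on either strand, against 30 of 21045 promoters of protein-coding genes (0.143%). The element is known from genes of this kind and was searched for that reason. Serpinh1, Pdia3, P4hb and Pdia4 had no match, and no member matched the shorter unfolded protein response element TGACGTGG, found in 0.713% of promoters. No member matched GAANNTTC (7.27% of promoters), TTCNNGAA (7.69%) or the 3-unit heat shock element that joins these overlapping pairs (0.523%), searched on both strands. Of the 20 HSF1 peaks at member gene ends, only 1 had its summit inside the 300 bases searched, and the missing match says only that these letters are not in this window.

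Serpinh1 (chromosome 7, 99345375 to 99353239, minus strand) was the only member with an HSF1 peak in all 6 wild type CS and MM lists. Its peak held 152 CS and 89 MM tags before heat shock, 491 and 307 at 12 min, and 563 and 387 at 60 min. The lists differ in depth and length, so each value is read within its list: the peak ranked 10 of 180 by tags in the CS list before heat shock, 19 of 1781 at 12 min and 41 of 4773 at 60 min. In the MM lists it ranked 11 of 449, 25 of 1927 and 49 of 4614. Its percentile by tags, where the top peak of a list stands at 100, was 95 to 99.2. Ranked by the authors' fold enrichment it stood at 11, 36 and 219 in the CS lists and at 35, 22 and 137 in the MM lists in order of time.

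The summit stayed in place. It lay 43 to 97 bp downstream of the Serpinh1 start site, inside the gene, and the 6 summits spanned 54 bp. The called region was 618, 1681 and 2802 bp wide with CS, and 537, 1434 and 1480 bp wide with MM, in order of time. The CS and MM peaks of a time overlapped each time. The fragment length that MACS estimated differed as well, from 40 to 45 bp before heat shock to 107 to 161 bp after it, and so did the median width of all peaks (400 and 195 bp before, 924 and 621 bp at 60 min in CS and MM); their part in the width at Serpinh1 was not tested. The deposited false discovery rate of the Serpinh1 peak was 100% (CS) and 37.5% (MM) before heat shock, 10.5% and 0% at 12 min, and 0.89% and 0% at 60 min. Before heat shock no CS peak at any gene (0 of 180) and 1 of 449 MM peaks had a rate of 5% or less. The CS peak of 12 min, with the second highest count of the members' wild type peaks (491 tags), therefore did not pass a limit of 5%. Its score, which MACS derives from the p-value and which is higher for a lower p, was 1342. A second Serpinh1 peak, 2679 bp upstream of the start site, was called with CS at 12 min alone. It held 39 tags, ranked 1484 of 1781, and no MM peak overlapped it.

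**Figure D1:**
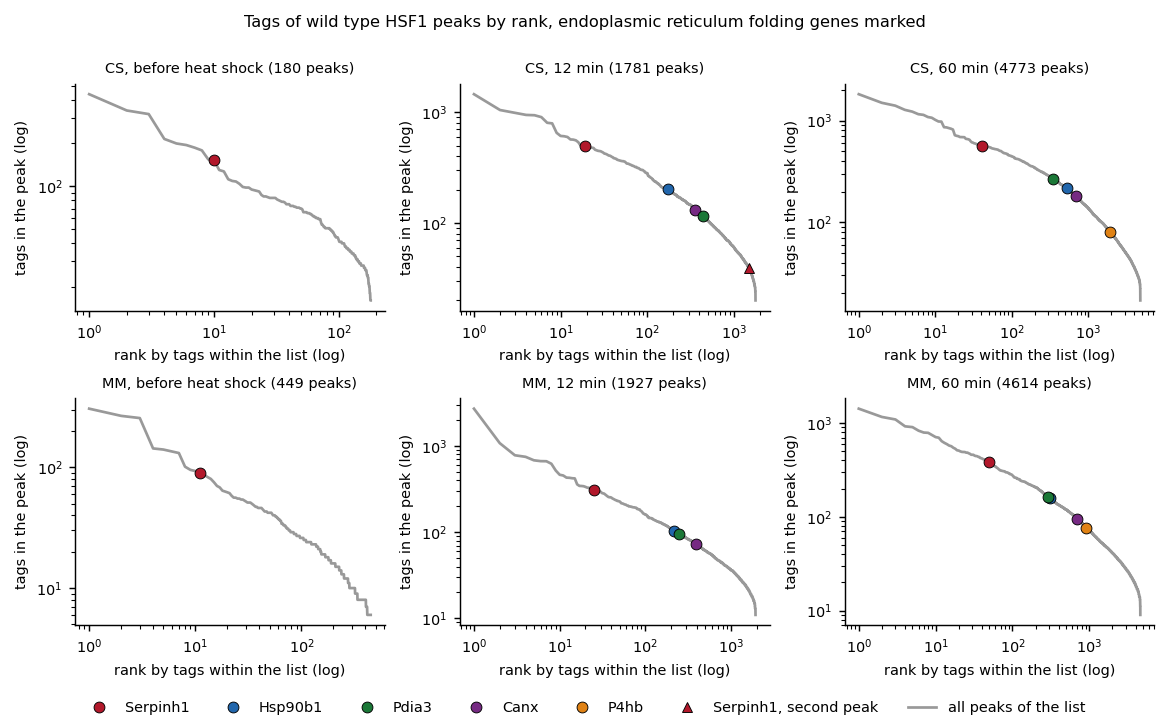
Tags in each peak (vertical, log scale) against the rank of the peak by tags (horizontal, log scale) in the 6 wild type CS and MM lists; the grey line is every peak of the list, circles are peaks within 1 kb of a member's gene end and the triangle is the second Serpinh1 peak. Serpinh1 is the highest member in every list, from rank 10 of 180 to rank 49 of 4614, and P4hb is the lowest circle at 60 min.

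Hsp90b1 (chromosome 10, 86690841 to 86705444, minus strand), the Hsp90 of the ER, had no peak before heat shock and a peak in all 4 later wild type lists. It held 201 CS and 102 MM tags at 12 min, and 216 and 158 at 60 min. These counts ranked 173 of 1781 and 216 of 1927 at 12 min, and 519 of 4773 and 312 of 4614 at 60 min. By fold enrichment the CS peak at 60 min was near the middle of its list (rank 2378 of 4773), whereas that at 12 min ranked 276 of 1781. The 4 summits lay 152 to 191 bp downstream of the start site and within 39 bp of each other. An end of the neighbouring gene Ttc41 lay 519 to 558 bp from the same summits, farther than the end of Hsp90b1.

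Among the lectin chaperones, Canx had HSF1 peaks and Calr had none. Canx (chromosome 11, 50293957 to 50325673, minus strand), the membrane-bound lectin, held 132 CS and 72 MM tags at 12 min, and 180 and 95 at 60 min. Its 4 summits were the most tightly placed of any member with peaks in several lists, 488 to 502 bp downstream of the start site and within 14 bp. By tags Canx ranked 361 of 1781 (CS) and 390 of 1927 (MM) at 12 min, and 680 of 4773 and 701 of 4614 at 60 min. By fold enrichment it stood lower, at 1541 of 1781 and 903 of 1927 at 12 min, and 2644 of 4773 and 3307 of 4614 at 60 min. Calr (chromosome 8, 84842088 to 84846931, minus strand), the soluble lectin, had no CS, MM or SRF peak in wild type cells at any time.

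Of the 4 disulfide isomerase genes, Pdia3 and P4hb had HSF1 peaks. Pdia3 (chromosome 2, 121413902 to 121438687, plus strand), the isomerase that works with calnexin and calreticulin, held 115 CS and 96 MM tags at 12 min, and 265 and 165 at 60 min. Its summits lay upstream of the start site, by 700 to 754 bp, and within 54 bp of each other. They fell inside the span of the neighbouring gene Catsper2, a sperm ion channel gene, but 1396 to 1450 bp from its nearer end. Given only to the gene whose span or end was nearest, these peaks went to Catsper2, and the members with a shared region then numbered 3 at 12 min and 4 at 60 min.

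P4hb (chromosome 11, 120560298 to 120573253, minus strand) had peaks at 60 min only, with 80 CS and 76 MM tags. They overlapped, but the CS summit lay 589 bp upstream of the start site and the MM summit 326 bp downstream, 915 bp apart. P4hb had the lowest counts of the 5 genes. By tags it ranked 1919 of 4773 (CS) and 916 of 4614 (MM), and by fold enrichment 4742 of 4773 and 4326 of 4614, close to the end of both lists. With a p-value of 1e-10 or less required, the P4hb region was lost and 4 members remained at 60 min. The lists of 12 min hold no value for P4hb, so a weaker signal at that time was not measurable. Pdia4 (chromosome 6, 47796141 to 47813512) and Pdia6 (chromosome 12, 17266589 to 17284785), which encode the isomerases ERp72 and P5, had no wild type peak.

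Hspa5 (chromosome 2, 34772090 to 34776529) and Hyou1 (chromosome 9, 44379490 to 44392369), the Hsp70 and its Hsp110-type partner in the ER, had no wild type CS, MM or SRF peak at any time. Widening the window to 20 kb added no member with a region found by CS and MM. The share of all protein-coding genes within 20 kb was not counted, so this is not read as a trait of these genes. Hspa5 is the gene most often used to mark the unfolded protein response, and a cytosolic relative, Hspa8, held 338, 1045 and 1156 CS tags in the same lists.

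**Figure D2:**
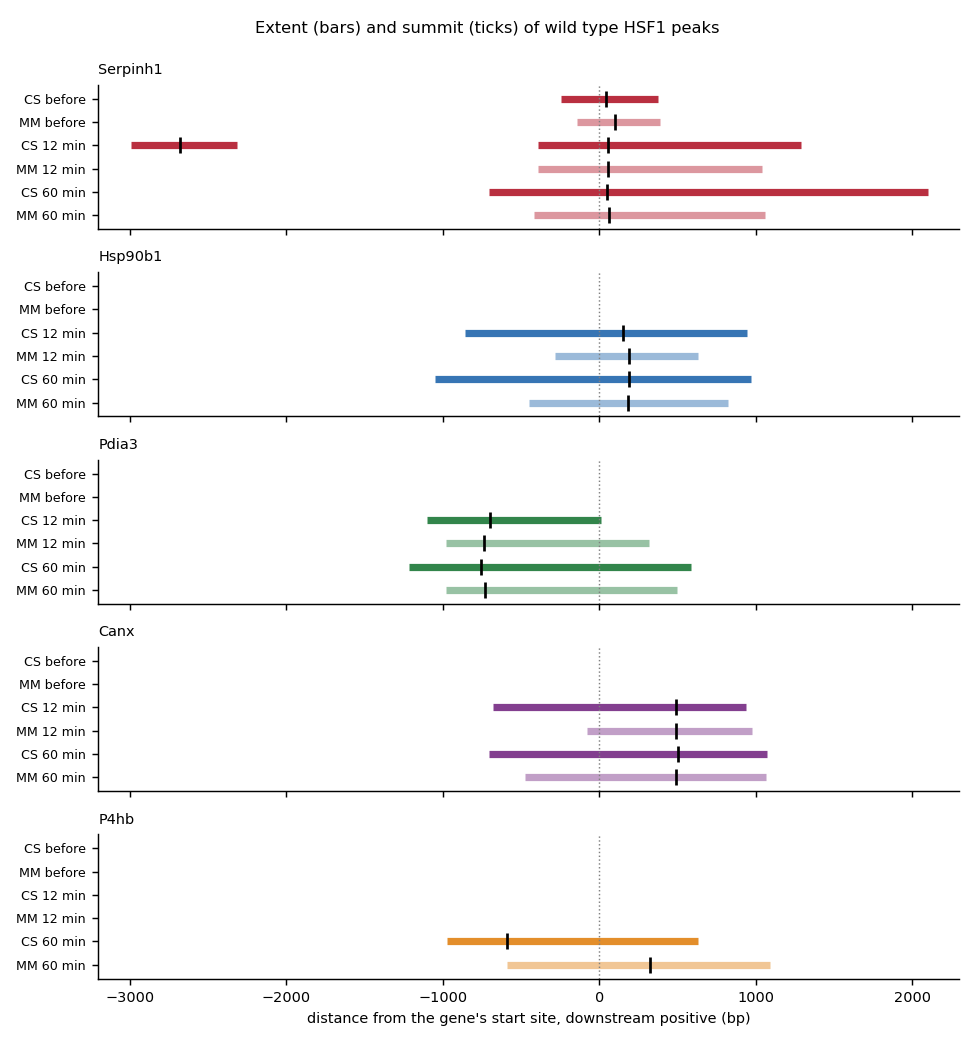
Extent (bars) and summit (ticks) of the wild type CS (dark) and MM (pale) peaks within 1 kb of the start site of the 5 members with peaks, with the second Serpinh1 peak, against the distance from the gene's start site in bp, downstream positive. Summits line up within each gene and differ between genes, except at P4hb, whose 2 summits lie 915 bp apart.

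Within a list the members could be ordered by tags. Each count was given a 95% exact Poisson interval, which covers counting error only. In the CS list of 12 min the order was Serpinh1 (491 tags, interval 449 to 536), Hsp90b1 (201, 174 to 231), Canx (132, 110 to 157) and Pdia3 (115, 94.9 to 138). The intervals of Canx and Pdia3 overlapped and the others did not. In the CS list of 60 min Serpinh1 (563, 517 to 611) led Pdia3 (265, 234 to 299), Hsp90b1 (216, 188 to 247), Canx (180, 155 to 208) and P4hb (80, 63.4 to 99.6). There the intervals of Pdia3 and Hsp90b1 overlapped, as did those of Hsp90b1 and Canx. In the MM lists Serpinh1 led Hsp90b1, Pdia3 and Canx at 12 min, and Pdia3, Hsp90b1, Canx and P4hb at 60 min. Serpinh1 stood apart from the next member in all 4 lists, and P4hb overlapped Canx in the MM list of 60 min.

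Ranked among all protein-coding genes with a peak within 1 kb of an end, by their highest peak, Serpinh1 was 10 of 44 genes in the CS list before heat shock, 22 of 394 at 12 min and 31 of 672 at 60 min. In the MM lists it was 12 of 162, 25 of 491 and 48 of 1012. Hsp90b1 was 92 of 394 (CS) and 103 of 491 (MM) at 12 min, and 164 of 672 and 136 of 1012 at 60 min. Hsp90ab1, a cytosolic relative of Hsp90b1, was at rank 1 in these 4 lists, with 1452 CS tags at 12 min against 201 at Hsp90b1. Hsp90aa1, also cytosolic, held 567 CS tags (16 of 394) and 454 MM tags (12 of 491) at 12 min. The other members stood lower than Serpinh1. Canx was 149 of 394 (CS) and 160 of 491 (MM) at 12 min, and 204 of 672 and 243 of 1012 at 60 min. Pdia3 was 180 of 394 and 117 of 491 at 12 min, and 121 of 672 and 130 of 1012 at 60 min. P4hb was 431 of 672 and 298 of 1012 at 60 min.

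All 20 member peaks at a gene end were wider than the median peak of their list and held more tags than its median. Of the 20, 15 had a fold enrichment above the median of their list. These 20 peaks come from 5 genes seen again by antibody and time, and the medians cover peaks anywhere in the genome. Among genes with a peak at an end, P4hb stood below the middle in the CS list of 60 min (431 of 672). The median percentile of the members' peaks at a gene end, which leaves out the second Serpinh1 peak, was 85.1 (CS) and 88.1 (MM) by tags at 12 min, and 89.1 and 93.3 at 60 min. By fold enrichment these medians were 77.8 and 70.9 at 12 min, and 50.2 and 61.7 at 60 min, so the members stood higher by tags than by fold.

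The count of members was read against all protein-coding genes. The members and the lists beside them were chosen with earlier results of these data known. The shares and intervals therefore describe these lists and are not a test. A region found by CS and MM (overlap of at least 1 bp, summit in the gene or within 10 kb) was present at 1 of 10 members before heat shock, where 0.532% of all protein-coding genes had one. At 12 min it was present at 4 of 10 (40%, exact binomial interval 12.2% to 73.8%), against 5.33% of all genes. At 60 min it was present at 5 of 10 (50%, interval 18.7% to 81.3%), against 11.2%. With the summit required within 1 kb of a gene end the members numbered 1, 4 and 5 again, and the shares of all protein-coding genes were 0.194%, 1.54% and 2.64%. Over all times a shared region lay at 11.8% of protein-coding genes within 10 kb and at 2.85% within 1 kb of an end, and at 5 of 10 members by either rule. Each antibody alone gave the same 1, 4 and 5 members, where CS peaks lay at 0.712%, 6.41% and 13.9% of all genes and MM peaks at 2.03%, 7.23% and 15.4%.

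**Figure D3:**
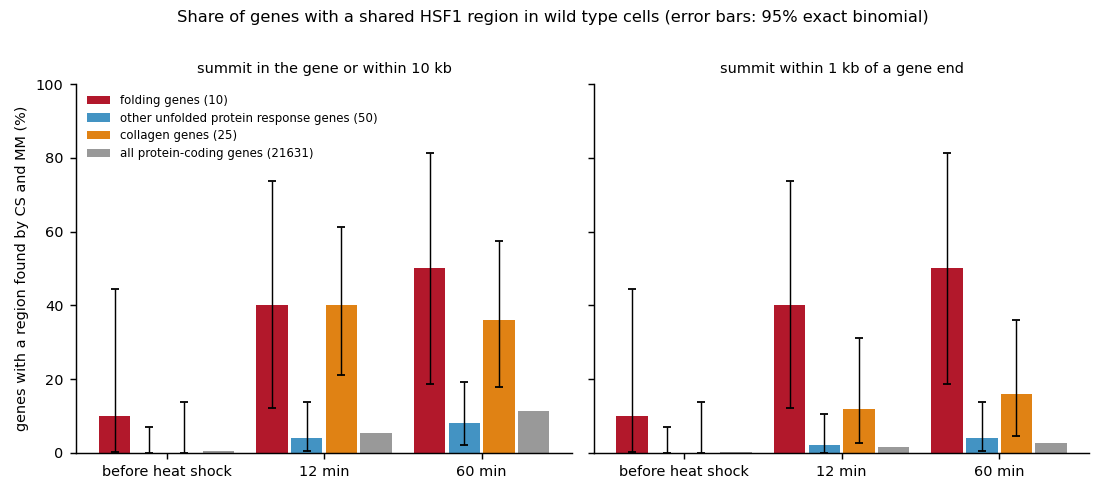
Percentage of genes with a region found by CS and MM in wild type cells, by time, for the 10 folding genes, 50 other genes of the unfolded protein response, 25 collagen genes and all protein-coding genes, with the summit in the gene or within 10 kb (left) or within 1 kb of a gene end (right); error bars are 95% exact binomial intervals. The folding genes reach 40% and 50% at 12 and 60 min in both panels, and the other unfolded protein response genes at most 8%. The lists were chosen with earlier results of these data known.

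The other genes of the unfolded protein response and of ER folding were set beside the members as a list of 50. None had a shared region before heat shock (0 of 50), 2 had one at 12 min (4%, interval 0.488% to 13.7%) and 4 at 60 min (8%, interval 2.22% to 19.2%). These shares lie near those of all protein-coding genes (5.33% and 11.2%). Erp44, which encodes a folding protein of the thioredoxin family, had a shared region at both times, 668 to 714 bp upstream of its start site, where the nearest gene was Invs. It held 98 CS and 72 MM tags at 12 min, and 181 and 114 at 60 min. The region counted for Ganab, a glucosidase gene, lay 8547 to 8568 bp from it, nearer to 1810009A15Rik. Ero1b, an oxidase that recharges disulfide isomerases, had a shared region 2187 to 2192 bp upstream at 60 min, with 81 CS and 47 MM tags. Ppp1r15b, a regulatory subunit of the phosphatase that acts on eIF2alpha, had one 153 to 179 bp from its end at 60 min, with 92 and 57 tags.

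The sensors and transcription factors of the response had no shared region. Ern1, Eif2ak3 and Xbp1 had no CS or MM peak in wild type cells, and Atf6 (57 CS tags at 60 min), Ddit3 (40 MM tags at 60 min) and Atf4 (25 MM tags before heat shock) had a peak of 1 antibody each. The peaks of Ddit3 and Atf4 were nearer to Mbd6 and Rps19bp1. Dnajc3, an ER partner of BiP, had MM peaks before heat shock (10 tags) and at 12 min (27 tags) and a CS peak at 60 min (61 tags), none of them shared. In all 13 of the 50 genes had some wild type CS or MM peak at some time, and 20.2% of all protein-coding genes did.

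Since Serpinh1 and P4hb act on collagen, 25 genes of collagens and their modifying enzymes were counted as well. P4ha1, the catalytic partner of P4hb in prolyl 4-hydroxylase, had a shared region 516 to 545 bp downstream of its start site. It held 384 CS and 256 MM tags at 12 min (ranks 41 of 1781 and 37 of 1927), and 702 and 534 at 60 min (ranks 20 of 4773 and 18 of 4614). In the lists of 60 min P4ha1 stood above Serpinh1 (563 and 387 tags) and far above P4hb (80 and 76 tags). Before heat shock P4ha1 had only an MM peak, of 23 tags. P4ha2, a second catalytic subunit, had a shared region at its start site at both times (145 and 71 tags at 12 min, 96 and 83 at 60 min). Within 10 kb a shared region was found at 10 of the 25 genes at 12 min and 9 at 60 min, against 5.33% and 11.2% of all protein-coding genes. Within 1 kb of a gene end it was found at 3 and 4 of the 25, against 1.54% and 2.64%. Col5a1 was counted there at 60 min, although its CS and MM peaks at that end overlapped an HSF1-/- peak of 60 min. The CS peak ranked 4773 of 4773 by fold enrichment. The collagen genes are longer (median 30745 bp) than the members (median 13780 bp), which widens the space in which a peak counts.

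Likeness to Serpinh1 was measured by the mean absolute difference in percentile by tags over the 6 wild type lists, among 116 genes with a peak in all of them. Among the 5 most alike were Stard13 (0.811 percentile points), Stip1, an Hsp90 cochaperone gene (0.834), and Aldh3b1 and Unc93b1 (0.903), which share their peaks. Stip1 held 130, 792 and 1138 CS tags and 68, 518 and 908 MM tags in order of time. Serpinh1 held 563 CS and 387 MM tags at 60 min. Since Serpinh1 stood at percentiles of 95 to 99.2, genes near the top of every list come out as alike, even where their tags differ. Serpinh1 was the only member among the 116.

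The HSF1-/- lists gave the background of the antibodies at these genes. In them 11 peaks lay at 6 members: Calr (4), Pdia4 (3), and Serpinh1, Hsp90b1, Hspa5 and Hyou1 (1 each). Such peaks are common, since 48% of all protein-coding genes had one in some HSF1-/- list, and 6 of 10 members is near that share. By list the members with a CS peak numbered 2, 2 and 1 in order of time (21.6%, 15.9% and 18.1% of all genes), and those with an MM peak 0, 2 and 3 (9.92%, 16.8% and 11.4%). They held 4 to 8 tags and were 64 to 140 bp wide, and 6 of the 11 had the lowest tag count of their list. That is common, since 55.5% to 72.1% of all peaks in the lists of those 6 held the lowest count. The wild type peaks at members held 39 to 563 tags and were 537 to 2802 bp wide. The lists were called in different ways, against IgG in wild type cells and with no control in HSF1-/- cells, so these numbers stand side by side without a comparison of levels.

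No HSF1-/- peak overlapped a wild type peak of a member at the same time. The share of all wild type peaks with such an overlap was not counted, so this is not read as a trait of these genes. None of the 11 was found by both antibodies. An HSF1-/- region of both antibodies lay at 2.37%, 2.01% and 2.55% of all genes in order of time. The distances that follow were not set against those of other genes. The HSF1-/- summit nearest to the wild type summits, from any list, lay 10817 bp away at Serpinh1, 19767 bp at Hsp90b1, 24725 bp at P4hb, 41877 bp at Pdia3 and 53341 bp at Canx. In the other direction, 3 HSF1-/- peaks lay within 1 kb of a gene end (13.7% of all genes had one), and all were at members with no wild type peak. They were at Pdia4 (MM, 12 min, 6 tags, 84 bp downstream of the start site), Calr (MM, 60 min, 8 tags, 329 bp upstream) and Hyou1 (CS, 12 min, 4 tags, 329 bp from the nearer end). None of the 11 peaks had a p-value of 1e-10 or less, a limit that 2.97% of protein-coding genes passed through some HSF1-/- peak.

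**Figure D4:**
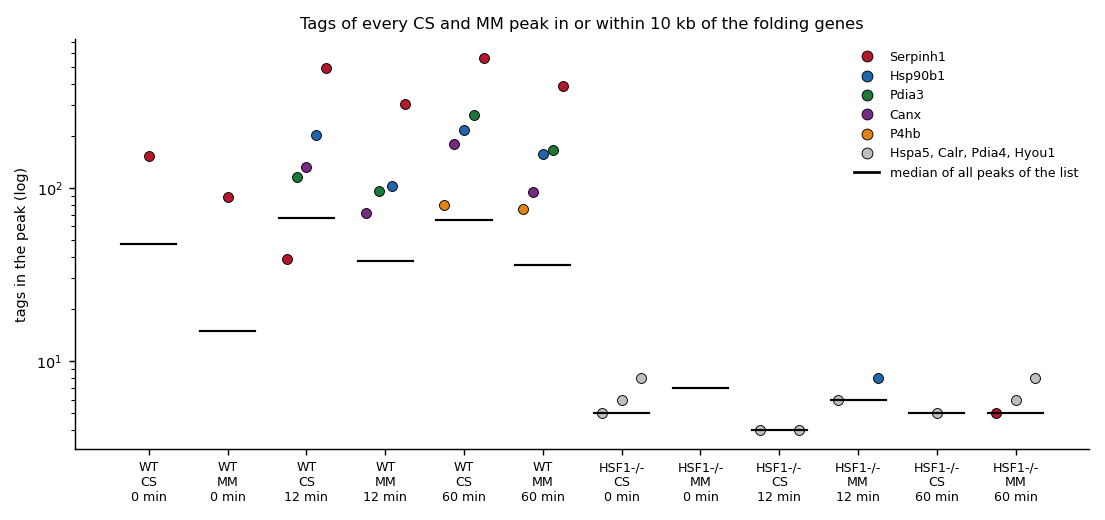
Tags (vertical, log scale) of every CS and MM peak in or within 10 kb of the 10 folding genes, by genotype, antibody and time, with the median of all peaks of each list as a black line. Wild type peaks lie between 39 and 563 tags and HSF1-/- peaks between 4 and 8, each set beside the median of a list that was called in its own way.

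No member had an SRF peak within 10 kb at any time (0 of 10). The SRF lists were short, and an SRF peak lay at 0.194% of protein-coding genes in unheated cells, 0.254% after 12 min, 0.0878% after 60 min and 0.458% at any time, so the lists could show little at 10 genes. Within 20 kb the count was 0 as well, where the share of all protein-coding genes was not counted.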

How the data were processed

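Of the 33 samples, the 15 with a peak list were used; the other 18 (nascent RNA, IgG and input libraries) were not analysed here. Per the file headers, the authors called wild type CS and MM peaks with MACS 1.4.2 (p cutoff 1e-04), using the IgG library of each time as control. The wild type file names speak of 2 merged replicates, and at most 1 tag was kept per position. Per the file headers, the HSF1-/- lists came from MACS 1.4.2 without a control and show no merging of replicates, and the SRF lists came from MACS 2.0.9 with IgG as control. CS and MM are different antibodies, not replicates. The genome was mm10, per the submitters' processing notes. For the aligner, a name was not given in the sources used here.

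Each CS or MM peak carries, as deposited by the authors, a tag count, a score derived from its p-value, a fold enrichment (a ratio) and, in wild type lists, a false discovery rate in percent. Each SRF peak carries, as deposited by the authors, a pileup (a signal), a fold enrichment and -log10 values of p and q. These are the authors' values, used here within 1 list at a time, to describe, filter or rank its peaks. They cover merged or unstated replicates, so their spread is unknown.

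Gene spans were taken from the RefSeq table of GRCm38.p6 (the primary assembly of mm10) and strands from its promoter table; exons were not used. Summits were assigned to genes, and CS and MM peaks that overlapped (1 bp or more) in the same genotype and time were called shared, in Python 3.11.15 with pandas 2.3.3 and scipy 1.17.1. The assignment was tested on simulated data. Intervals are exact (95%) and cover counting error only. The members and gene lists were chosen with earlier results of these data known. Named were the 10 members, comparator and collagen genes with a shared region, genes nearer than a member to its peak, and the 5 genes most like Serpinh1, of which 1 is not reported here; further genes were picked after their values were seen. The alternatives changed the window, the gene a peak belongs to, the threshold, the overlap, the antibody, the ranking value and the motif mismatches (1 allowed).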

Additional observations from a re-analysis of the deposited data

How the results depend on the processing

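No paired analysis was possible because each genotype, time and antibody had 1 list. The members with a shared region (1, 4 and 5 at 0, 12 and 60 min) stayed within 1.5 times under the 10 alternatives tried. The exception was a false discovery rate of 5% or less before heat shock (0 members), which no gene could pass, since no CS peak of that time (0 of 180) did. For wild type regions, shares of all protein-coding genes were counted within 10 kb, within 1 kb of a gene end and for each antibody alone. They were not counted for the other alternatives. The count over the 50 other unfolded protein response genes (0, 2 and 4) moved more. Before heat shock it was 1 within 20 kb and 3 with MM alone. At 12 min it was 1 within 5 kb, 1 within 1 kb of a gene end, 0 with the nearest gene only, 1 with p of 1e-10 or less and 4 with MM alone. At 60 min it was 2 within 1 kb of a gene end, 2 with the nearest gene only and 9 with CS alone. The collagen count (10 and 9) was 3 and 4 within 1 kb of a gene end, a setting added after seeing the data. The members with an HSF1-/- peak (6) were 3 within 1 kb of a gene end and 0 with p of 1e-10 or less, and those with an SRF peak were 0 throughout. Before heat shock the only member peak was that of Serpinh1, and its MM percentile of 97.8 by tags became 92.4 by fold enrichment. Median percentiles by tags of member peaks at a gene end were 85.1 (CS) and 88.1 (MM) at 12 min, and 89.1 and 93.3 at 60 min. By fold enrichment these medians became 77.8, 70.9, 50.2 and 61.7, and by score 80.6, 81.1, 76.7 and 83.3. The count of 0 members with a 3-unit heat shock element was 0 with 1 mismatch as well. With 1 mismatch 6.63% of promoters of protein-coding genes matched, so few matches would be seen among 9 promoters at that share. Depth limits the lists: the lowest peak called held 16 CS or 6 MM tags before heat shock and 17 or 9 at 60 min, and weaker signal has no value in them.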

Other observations

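The collagen genes also held other HSF1 regions, some of them far from the gene ends. Col4a2, a basement membrane collagen gene, had a shared region 72896 to 72915 bp downstream of its start site, with 112 CS and 87 MM tags at 12 min, and 357 and 189 at 60 min. Col5a1, a fibrillar collagen gene, had one 49109 to 49132 bp downstream, with 114 CS and 73 MM tags at 12 min, and 387 and 204 at 60 min. Plod2, a collagen lysyl hydroxylase gene, held 189 CS and 97 MM tags at 12 min, and 260 and 218 at 60 min. They lay at 1 internal site, 2415 to 2452 bp from its nearer end. Sparc, which encodes a collagen-binding matrix protein, held 83 and 63 tags at 12 min, and 290 and 131 at 60 min, 1206 to 1245 bp downstream of its start site. Col1a1 held 138 and 64 tags at 12 min, and 190 and 85 at 60 min, outside the gene and 2908 to 2935 bp from its nearer end. Plod1 had a shared region at 12 min only (51 and 21 tags), 55 to 60 bp downstream of its start site. Col4a1 and P3h2 had internal regions at both times.

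Promoters differed in how often they held the letters of a heat shock element. The 3-unit element was in 22 of 336 promoters (6.55%) of genes with a shared region within 1 kb of an end at 12 min, and in 77 of 20410 promoters (0.377%) of genes with no such region at any time. The ER stress element was in 2 of the 336 promoters, those of Hsp90b1 and Canx. Of the 50 other unfolded protein response genes, 42 had a promoter sequence, and among these it was found at Creld2, Derl3, Dnajc3, Ero1b and Syvn1. Of these, Ero1b had a shared HSF1 region.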
